A study of Mus musculus with 33 samples.

Results

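The genes described here are 10 that encode parts or regulators of the smooth muscle contractile apparatus: Acta2, Actg2, Tagln, Myl9, Cnn1, Cnn2, Tpm1, Tpm2, Myh11 and Lmod1. They were chosen by symbol from the 47729 genes in the count tables, with earlier results of these data known, and each symbol matched 1 gene identifier. Shares of all genes set beside counts of these members are therefore a description and not a test of the set. RNA had been sequenced from cultures labelled as retinal progenitor cells from C57BL/6J mouse retina at embryonic day 14, with 3 libraries in each of 11 groups. At day 0 the groups were untreated cells, cells primed towards cones with COCO protein, a secreted protein that blocks BMP, TGF-beta and Wnt signalling, and cells primed towards rods with taurine plus retinoic acid. At days 5, 12, 21 and 35 the groups were cells under cone induction with COCO protein and cells under rod induction with taurine plus retinoic acid, called cone and rod cells below after the labels. All groups share the strain and the source tissue. The labels do not say whether replicates came from separate animals or cultures, so p-values measure the spread between libraries, which may be technical.

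Smooth muscle contracts when myosin, phosphorylated on its regulatory light chain, pulls on actin filaments whose access is set by tropomyosin and calponin. The genes for these proteins share regulation by serum response factor, which binds the CArG box and is activated by myocardin and by the actin-sensing myocardin-related factors, and TEAD factors bind the CATTCC motif (MCAT) in several of the same promoters. The same genes are on in pericytes, in myofibroblasts and in many cell types kept in adherent culture, and in the retina they are known mainly from the mural cells of vessels. Several of the 10 are therefore not specific to smooth muscle: Tpm1, Tpm2, Cnn2 and Myl9 are used by many cells, whereas Myh11, Cnn1 and Lmod1 are usually taken as marks of the contractile state.

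Gene counts per library ranged from 7511837 to 19166442 (median 12985662), and a count of 0 allowed a level of up to 0.174 to 0.407 CPM (counts scaled by TMM library size to a common total) at a floor of 3 counts per library. All 10 genes passed the filter on low counts, with 18150 genes tested in all. Of these 10, 6 (Acta2, Actg2, Tagln, Cnn1, Cnn2 and Lmod1) reached the filter's level of 0.770 CPM in fewer than 3 of the 9 libraries of day 0 and so passed only through later libraries. A list of 10 retinal progenitor genes had a summed level at day 0 of 1159.9 to 1288 CPM in untreated cells, 1142 to 1330.4 in cone primed cells and 1269 to 1502 in rod primed cells. It summed to 982 to 1443 CPM in rod cells at day 35, which overlaps the day 0 libraries. In cone cells it lay below all day 0 libraries at each later day. It was 843 to 913 CPM there at day 5, 786 to 830 at day 12, 822 to 1022 at day 21 and 804 to 953 at day 35. The sum thus does not tell every later culture from day 0 and does not test the label. A list of 7 photoreceptor genes already summed at day 0 to 897 to 1212 CPM in untreated, 729 to 1182 in cone primed and 619 to 1213 in rod primed cells. It summed to 1207 to 1393 CPM in cone cells at day 5, 11.2 to 30.2 in cone cells at day 35 and 8.65 to 16.6 in rod cells at day 35. The summed RNA of these 7 genes was thus lower at day 35 than at day 0. The deposited TPM values did not track the counts (Pearson's r of log2 values across genes 0.250 to 0.345 per library; genes are not independent replicates). Xist had 1728 to 26731 counts per library and its antisense gene Tsix 0 to 7, whereas Xist had 0.289 to 7.84 TPM and Tsix 0.180 to 591. A TPM value may therefore hold reads of the opposite strand and is not taken here as a measure of its gene. All results are from the counts. On the TPM values most calls below between conditions are lost (1 of 10 at day 12). There 131 of all genes were called at day 12, beside 1833 on the counts. Values given per library are in the order of replicates 1, 2 and 3, and the labels name no batch.

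Promoter windows of 300 bases, from 250 before to 50 after the annotated start, were held in the RefSeq table on GRCm38.p6 for 7 of the 10 genes (Acta2, Myl9, Cnn1, Cnn2, Tpm1, Tpm2 and Lmod1). They are shown because the 10 genes rose together (below) and the CArG box and CATTCC are the motifs their regulators are known to bind. An exact CArG box, on either strand, was found in Myl9 (161 bases before the start) and Cnn2 (56 before), which is 2 of 7 windows against 1.63% of 32851 promoters. With at most 1 letter changed it was found in 5 of 7 (Acta2, Myl9, Cnn2, Tpm1 and Lmod1) against 21.1% of promoters, and this count includes the exact matches. CATTCC, read as GGAATG on the other strand, was found in Acta2, Tpm1 and Lmod1, which is 3 of 7 against 14.7%. No window held an overlap of the 2 motifs, and none of these letters were in the windows of Cnn1 and Tpm2. The 4 stretches printed run from 250 to 46 bases before the start, 5′ to 3′ along the gene's strand, with CArG matches (exact or with 1 letter changed) and CATTCC in capitals. They lie at chr19:34255419-34255623, minus strand (Acta2), chr2:156775214-156775418, plus strand (Myl9), chr10:79988350-79988554, plus strand (Cnn2) and chr1:135324563-135324767, plus strand (Lmod1).
Acta2: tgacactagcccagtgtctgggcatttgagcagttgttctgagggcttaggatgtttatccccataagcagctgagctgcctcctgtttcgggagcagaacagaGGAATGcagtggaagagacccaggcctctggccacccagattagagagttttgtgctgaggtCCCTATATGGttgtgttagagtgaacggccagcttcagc
Myl9: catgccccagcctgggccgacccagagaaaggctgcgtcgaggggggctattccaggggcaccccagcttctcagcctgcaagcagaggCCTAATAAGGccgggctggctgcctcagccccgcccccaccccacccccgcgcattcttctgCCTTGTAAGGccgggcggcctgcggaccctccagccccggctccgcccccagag
Cnn2: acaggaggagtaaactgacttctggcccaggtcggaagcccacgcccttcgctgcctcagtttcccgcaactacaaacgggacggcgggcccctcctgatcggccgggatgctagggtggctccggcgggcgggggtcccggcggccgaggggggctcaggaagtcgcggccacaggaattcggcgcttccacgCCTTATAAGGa
Lmod1: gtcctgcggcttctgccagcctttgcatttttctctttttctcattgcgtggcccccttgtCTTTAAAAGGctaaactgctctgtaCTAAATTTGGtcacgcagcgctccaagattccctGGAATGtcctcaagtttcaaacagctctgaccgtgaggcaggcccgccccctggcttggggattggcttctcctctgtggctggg
Acta2 carries GGAATG and a CArG-like CCCTATATGG, Myl9 an exact CArG box (CCTAATAAGG) and a CArG-like CCTTGTAAGG, Cnn2 an exact CArG box (CCTTATAAGG) near the end of the printed stretch, and Lmod1 a pair of CArG-like runs (CTTTAAAAGG and CTAAATTTGG) and GGAATG. A further CArG-like run of Acta2, CCTTGTTTGG, lies 34 bases before the start and so outside the printed stretch. A match of letters is a description and not a bound site, since binding was not measured.

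Before induction, Tpm1 was well detected, Tpm2 was at a few CPM and the other 8 genes were at 0 to 22 counts per library. Tpm1, an actin-binding tropomyosin found in most cells, had 69.5, 63.2 and 65.1 CPM in untreated cells, 58.9, 70.7 and 67.5 in cone primed cells and 54.3, 56.0 and 56.3 in rod primed cells. Tpm2, its muscle-enriched relative, had 3.71, 2.47 and 4.01 CPM in untreated cells, 3.52, 3.72 and 1.89 in cone primed cells and 1.22, 1.41 and 1.71 in rod primed cells, with the 3 rod primed libraries below all others. Cnn1 had 0 counts in all 9 libraries of day 0, and Acta2, the smooth muscle alpha-actin, had 0 to 4 counts per library. Priming called 0 of the 10 genes against untreated cells in either condition by edgeR (adjusted p under 0.05), where 0% of all tested genes were called for cone priming and 10.3% for rod priming. Of the 10, 0 and 1 had an unadjusted p under 0.05, a threshold at which the share of all genes is not given here. Between cone primed and rod primed cells 0 of the 10 were called (background 7.27%), and 0 had an unadjusted p under 0.05. The comparisons of the 2 primed groups with untreated cells share the untreated libraries.

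Levels rose steeply in culture in both conditions, with Acta2, Tagln, Cnn2 and Myl9 called in both conditions from day 5 and Actg2, Tpm1, Tpm2 and Myh11 in neither before day 12. At day 5 edgeR called 6 of the 10 higher in cone cells than in cone primed cells (background 12.2% called higher): Acta2, Tagln, Cnn1, Cnn2, Myl9 and Lmod1. In rod cells it called 4 higher than in rod primed cells (background 8.76%): Acta2, Tagln, Cnn2 and Myl9. At days 12, 21 and 35 all 10 were called higher than in the primed cells of the same condition, where 26.7%, 29.4% and 31.1% of all genes were called higher in cone cells and 24.2%, 27.2% and 29.4% in rod cells. The comparisons of later days share the primed libraries of their condition. Of the 10 genes, 6 (Acta2, Actg2, Tagln, Cnn1, Cnn2 and Lmod1) could pass the filter only through later libraries. A rise was thus built into their being tested, and their calls against primed cells are given as a description. The counts and medians of the 10 against primed cells include them, so the shares of all genes are no test of these counts. Myl9, Tpm1, Tpm2 and Myh11 did not need later libraries to pass. The median log2 fold change of the 10 at day 35 was 8.37 in cone cells and 7.82 in rod cells, beside 0.03 and 0.04 over all tested genes. In bulk RNA, more cells of a contractile type and more RNA per cell cannot be told apart.

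**Figure D1:**
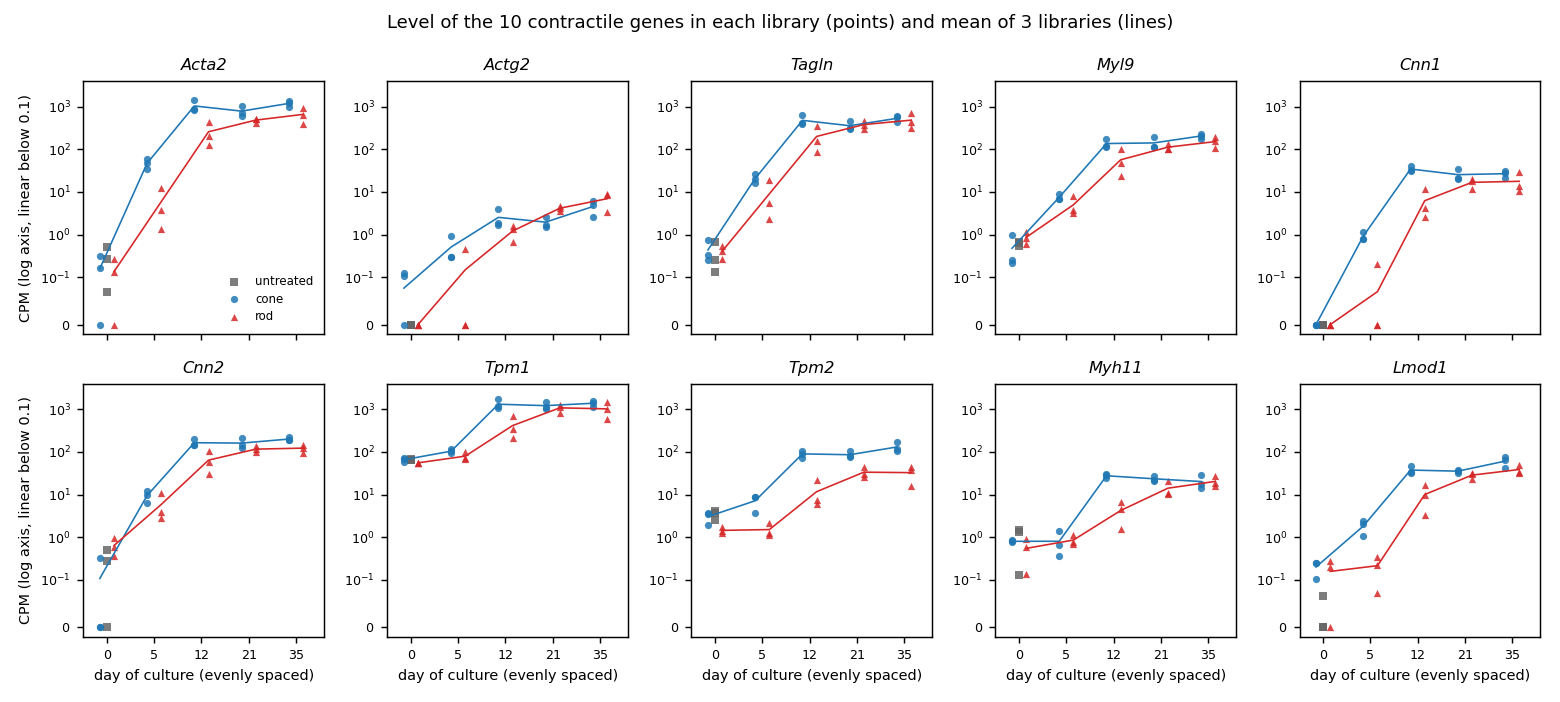
Level of each gene in every library, as CPM on a log axis (linear below 0.1), by day of culture (days evenly spaced), with squares for untreated, circles for cone and triangles for rod libraries and lines through the means of 3 libraries. Tpm1 starts at 54.3 to 70.7 CPM and the other 9 genes start below 5 CPM; cone libraries lie above rod libraries for all 10 genes at day 12, and the conditions overlap for most genes at days 21 and 35.

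Acta2 and Actg2 encode the alpha and gamma actins of smooth muscle. Acta2 (ENSMUSG00000035783, chromosome 19, 34241090 to 34255336 on GRCm38, minus strand, protein-coding) had 0.512, 0.267 and 0.0679 CPM in untreated, 0, 0.162 and 0.314 in cone primed and 0.136, 0 and 0.269 in rod primed libraries. In cone cells it had 59.3, 33.7 and 48.0 CPM at day 5 and 864, 855 and 1406 at day 12. It then had 1045, 618 and 699.8 CPM at day 21 and 1363, 1223 and 994 at day 35, so the level of day 12 was not exceeded beyond the spread. In rod cells it had 12.6, 1.36 and 3.82 CPM at day 5, 438, 127 and 209 at day 12, 519.8, 411 and 523 at day 21 and 384, 642 and 955 at day 35. The 3 cone libraries were above the 3 rod libraries at each of the 4 days. Against primed cells, which held 5 counts in all in the cone and 4 in the rod condition, counts at day 35 were 7104-fold (3044 to 21881) higher in cone cells and 4889.6-fold (1909 to 17947) higher in rod cells, with 95% exact intervals that cover counting error only.

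Actg2 was the least counted of the 10 at day 35. It had 0 to 1 counts per library at day 0, then 0.935, 0.304 and 0.291 CPM in cone cells at day 5, 1.87, 1.71 and 4.02 at day 12, 2.62, 1.54 and 1.70 at day 21 and 6.06, 2.58 and 5.00 at day 35. In rod cells it had 0.449, 0 and 0 CPM at day 5, 1.57, 0.682 and 1.37 at day 12, 3.55, 4.71 and 4.17 at day 21 and 3.40, 8.89 and 8.52 at day 35. Cone libraries were above rod libraries at day 12 and below them at day 21, and the conditions overlapped at days 5 and 35. By edgeR no cone against rod difference of Actg2 passed the test (adjusted p 0.181, 0.277, 0.243 and 0.515 at days 5, 12, 21 and 35), and at day 21 its log2 fold change of -1.10 ± 0.55 was called only with voom quality weights (adjusted p 0.0194). At day 35 it was at least 21.3-fold higher in rod cells than the floor of the rod primed libraries, all at 0, and 68.1-fold (18.5 to 567) higher in cone cells, against 2 counts in all.

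Tagln encodes transgelin (SM22-alpha), an actin-bundling protein and an early mark of smooth muscle differentiation, and overlaps the genes Pcsk7 and Gm48529 on the other strand. It had 0.252, 0.323 and 0.733 CPM in cone primed cells, 26.3, 15.9 and 19.9 in cone cells at day 5, 411, 396 and 628 at day 12, 470.1, 295 and 309 at day 21 and 596, 565 and 439 at day 35. In rod cells it had 0.271, 0.403 and 0.539 CPM when primed, 19.1, 2.36 and 5.62 at day 5, 356, 86.4 and 159.6 at day 12, 471, 294 and 378 at day 21 and 325, 434 and 693 at day 35. At day 5 rod replicate 1 lay inside the range of the cone libraries, at day 12 the groups did not overlap, and at days 21 and 35 they did. At day 35 counts were 1220.3-fold (713 to 2292) above primed cells in the cone condition and 1191-fold (682 to 2305) in the rod condition.

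Cnn1 and Cnn2 encode calponins, which bind actin and inhibit the myosin ATPase, and Lmod1 encodes leiomodin 1, which nucleates actin filaments in smooth muscle. Cnn1, at 0 counts in every day 0 library, had 0.802, 0.790 and 1.16 CPM in cone cells at day 5 and 0, 0 and 0.208 in rod cells, where the single value above 0 stands for 3 counts. It reached 30.2, 32.8 and 40.5 CPM in cone cells at day 12 against 12.0, 2.59 and 4.11 in rod cells. It had 34.9, 21.5 and 20.0 CPM against 20.2, 11.9 and 18.3 at day 21 and 31.8, 27.6 and 21.0 against 10.3, 13.8 and 29.2 at day 35. At day 35 Cnn1 was at least 86.1-fold higher in cone and at least 54.5-fold higher in rod cells than the floor of the primed libraries. The cone and rod libraries of Cnn1 were apart at days 5 and 12 and overlapped at days 21 and 35.

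Cnn2, the calponin of non-muscle and muscle cells alike, had 12.2, 6.44 and 9.71 CPM in cone and 10.8, 2.86 and 3.96 in rod cells at day 5. At day 12 the levels were 143, 149 and 203 CPM and 103, 30.2 and 59.3 CPM. The conditions overlapped at day 5 and were apart at day 12. It had 212, 123 and 149 CPM in cone and 136, 98.3 and 115 in rod cells at day 21. By day 35 there were 221, 194 and 187 CPM and 95.5, 125 and 148 CPM. They overlapped at day 21 and were apart again at day 35. Lmod1 had 0 to 3 counts per library at day 0. Lmod1 had 2.34, 1.09 and 2.03 CPM in cone and 0.225, 0.0715 and 0.347 in rod cells at day 5. At day 12 the levels were 33.1, 31.9 and 47.6 CPM and 16.9, 3.27 and 9.88 CPM. All cone libraries of Lmod1 were above all rod libraries at these days. It had 36.2, 37.7 and 32.3 CPM in cone and 32.7, 22.6 and 30.5 in rod cells at day 21. By day 35 there were 66.1, 74.2 and 42.3 CPM and 32.0, 34.0 and 50.3 CPM. At these later days the conditions overlapped.

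The tropomyosins, which lie along the actin filament, differed from each other in their course. Tpm1 had 115, 94.9 and 103 CPM in cone and 98.0, 67.4 and 73.9 in rod cells at day 5. At day 12 the levels were 1183, 1060.4 and 1709.8 CPM and 683, 215 and 348 CPM. The conditions overlapped at day 5, and all cone libraries were above at day 12. It had 1515, 1026 and 1119 CPM in cone and 1151, 812 and 1287 in rod cells at day 21. By day 35 there were 1424, 1597 and 1142 CPM and 588, 1014 and 1471 CPM. They overlapped at both later days. It was the most counted of the 10 at day 35 in both conditions, yet its fold over primed cells was the smallest, 20.8-fold (19.9 to 21.8) in cone and 19.2-fold (18.2 to 20.2) in rod cells. Tpm2 had 8.82, 3.71 and 8.95 CPM in cone and 2.13, 1.14 and 1.25 in rod cells at day 5, and 89.4, 73.5 and 107 and 21.6, 6.14 and 7.35 at day 12. At day 21 it had 104, 79.5 and 74.2 CPM in cone and 30.8, 26.1 and 43.7 in rod cells, and at day 35 172, 103 and 118 and 15.9, 38.6 and 43.5. The cone libraries of Tpm2 lay above the rod libraries at every day, day 0 included.

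Of the myosin genes, Myl9 encodes the regulatory light chain and Myh11 the smooth muscle heavy chain. Myl9 had 8.82, 6.99 and 6.68 CPM in cone and 7.86, 3.86 and 3.26 in rod cells at day 5. At day 12 the levels were 111, 122 and 177 CPM and 99.9, 23.3 and 47.1 CPM. The conditions overlapped at day 5 and were apart at day 12. It had 196, 113 and 114 CPM in cone and 135, 102 and 100.03 in rod cells at day 21. By day 35 there were 234, 211 and 172 CPM and 107, 155 and 193 CPM. They overlapped at days 21 and 35. Myh11 had 0.128, 1.47 and 1.36 CPM in untreated cells and was not above that range at day 5, with 1.40, 0.365 and 0.639 CPM in cone and 0.674, 0.786 and 1.11 in rod cells. It then had 30.1, 24.5 and 28.1 CPM in cone and 6.57, 1.57 and 4.54 in rod cells at day 12. It had 27.8, 21.5 and 21.2 CPM in cone and 10.2, 21.1 and 11.1 in rod cells at day 21. By day 35 there were 18.1, 28.2 and 14.4 CPM and 18.4, 16.0 and 26.7 CPM. The cone and rod libraries of Myh11 were apart at day 12, apart by a narrow margin at day 21, and intermixed at days 5 and 35.

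Levels were also scaled per kilobase of exon so that genes could be set beside each other. At day 35 in cone cells the order, as mean CPM per kilobase ± SD (n = 3), was Acta2 (543 ± 84.9), Tagln (268 ± 41.9), Tpm1 (214 ± 35.4), Myl9 (177 ± 26.8), Cnn2 (81.5 ± 7.16), Tpm2 (45.0 ± 12.6), Lmod1 (15.4 ± 4.20), Cnn1 (9.80 ± 2.00), Actg2 (2.92 ± 1.15) and Myh11 (2.66 ± 0.945). In that order Tagln and Tpm1, Tpm1 and Myl9, Lmod1 and Cnn1, and Actg2 and Myh11 differed by less than the sum of their SDs. In rod cells the means had the same order, from Acta2 at 301 ± 130.3 to Myh11 at 2.68 ± 0.737. There, of neighbours in the order, only Myl9 (131 ± 37.0) and Cnn2, and Cnn2 and Tpm2 (11.2 ± 5.07), differed by more than the sum of their SDs. The smooth muscle heavy chain was thus far below the smooth muscle actin in both conditions.

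Cone and rod cells of the same day were then compared. By edgeR 4 of the 10 genes were higher in cone cells at day 5 (background 3.48% of tested genes called higher), 8 at day 12 (background 5.98%), 1 at day 21 (background 5.86%) and 1 at day 35 (background 7.77%). Every called gene was higher in cone cells. The 10 were chosen with earlier results of these data known, so these counts beside their backgrounds are a description. Unadjusted p-values under 0.05 were found for 6, 9, 1 and 1 of the 10, and the share of all genes at that threshold is not given here. The median log2 fold change of the 10 was 1.66, 1.79, 0.40 and 0.51 at the 4 days in turn, with medians over all genes between -0.01 and 0.03. All 3 cone libraries were above all 3 rod libraries for 4, 10, 3 and 3 genes at days 5, 12, 21 and 35, where 16.8%, 12.1%, 14.5% and 16.3% of all genes were so. Actg2 at day 21 was the 1 gene with all cone libraries below all rod libraries (background 10.2%).

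At day 5 the called genes were Acta2 (log2 fold change of cone over rod 3.08 ± 0.51, SE, adjusted p 0.000218), Cnn1 (3.37 ± 1.04, adjusted p 0.0456), Lmod1 (3.02 ± 0.68, adjusted p 0.00439) and Tpm2 (2.30 ± 0.50, adjusted p 0.00329). Cnn1 rests on 45 counts in cone and 3 in rod libraries, a ratio of 11.5 (3.69 to 57.9, counting error only), and its call was lost without any 1 of 5 of the 6 libraries (all but rod day 5 replicate 3; adjusted p 0.0676 to 0.159). Tagln (1.27 ± 0.49, adjusted p 0.110) was called without rod day 5 replicate 1 (adjusted p 0.00481), as was Actg2 (adjusted p 0.0244). Tagln was also called with voom quality weights (adjusted p 0.0294). Lmod1 (0.0611) and Cnn1 (0.0648) were not called with those weights. Rod day 5 replicate 1 held the highest rod level in 7 of the 10 genes, and its photoreceptor sum was the lowest of the 3 rod libraries (625, 1031 and 767 CPM); the part of this in the result was not tested.

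At day 12 Tpm2 (2.95 ± 0.40, adjusted p 1.26e-05), Myh11 (2.71 ± 0.42, adjusted p 9.02e-05) and Cnn1 (2.47 ± 0.45, adjusted p 0.00105) had the largest differences. Acta2 (2.01 ± 0.44, adjusted p 0.00311), Lmod1 (1.91 ± 0.35, adjusted p 0.000626) and Tpm1 (1.67 ± 0.30, adjusted p 0.000505) followed, and Cnn2 (1.36 ± 0.36, adjusted p 0.0147) and Myl9 (1.27 ± 0.34, adjusted p 0.0170) were the smallest of those called. Tagln (1.25 ± 0.44, adjusted p 0.0702) and Actg2 (1.08 ± 0.57, adjusted p 0.277) did not pass. With only the 6 libraries of this day in the model 2 of the 10 were called, Tpm2 and Myh11. That model called 363 of all genes, beside 1833 in the model of all libraries. Myl9 (adjusted p 0.0847 to 0.117) and Cnn2 (0.0652 to 0.0827) lost their calls without cone replicate 3, rod replicate 2 or rod replicate 3, and Tagln was called without rod replicate 1 (0.00451) and with voom quality weights (4.73e-05). The rod libraries of day 12 were spread widely: replicate 1 was the highest and replicate 2 the lowest of the 3 in 10 of 10 genes. Their photoreceptor sums ran the other way, at 67.0, 734 and 134 CPM, beside 65.4, 229 and 66.3 CPM in the cone libraries, and the part of this in the result was not tested.

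At days 21 and 35 Tpm2 was the gene called, with 1.36 ± 0.37 (adjusted p 0.0198) and 2.00 ± 0.37 (adjusted p 0.000611). The call at day 21 was lost without cone replicate 1, rod replicate 1 or rod replicate 2 (adjusted p 0.0641 to 0.103), and the call at day 35 was kept without each library. Acta2 was above its rod libraries in every cone library at both days, with 0.70 ± 0.43 (adjusted p 0.350) and 0.85 ± 0.43 (adjusted p 0.218). At day 35 Cnn2 had 0.71 ± 0.35 (adjusted p 0.219), called with voom quality weights (adjusted p 0.0349) and with only the libraries of this day in the model (adjusted p 0.0355). The other 8 genes had adjusted p-values from 0.243 to 0.932 at day 21, where Myh11 was called with voom quality weights (0.00639), and the other 7 from 0.231 to 0.993 at day 35. A p that misses the threshold does not show that these levels were equal.

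**Figure D2:**
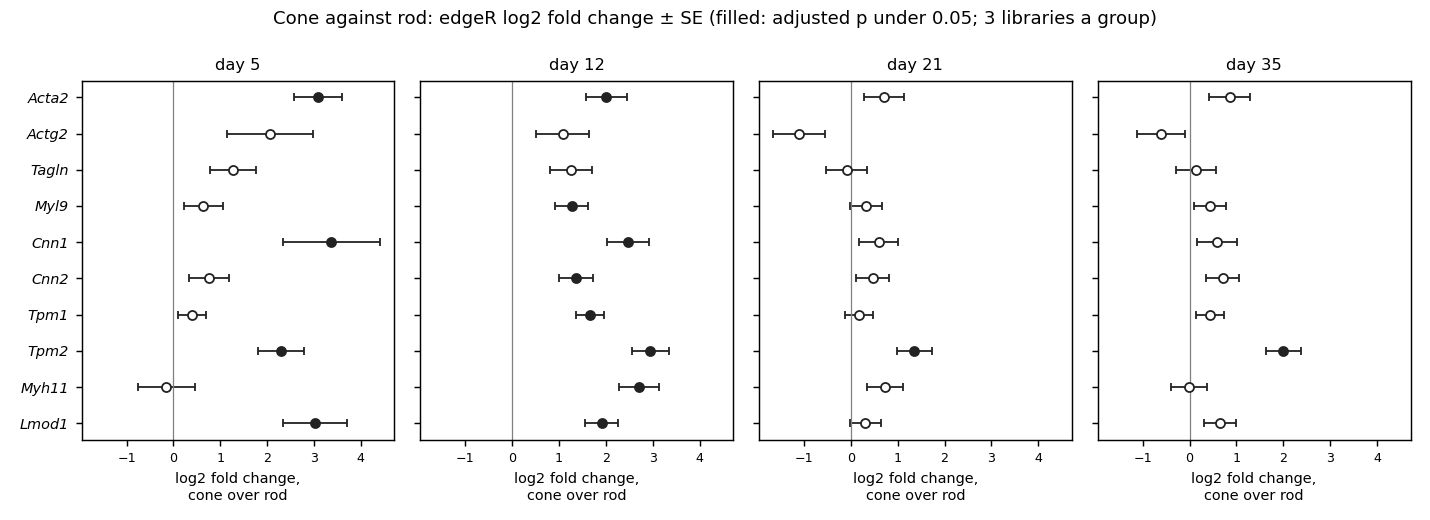
Log2 fold change of cone over rod cells with its standard error for each of the 10 genes at days 5, 12, 21 and 35 (edgeR, 3 libraries a group), with filled points for an adjusted p under 0.05. Points lie right of 0 for 10 of 10 genes at day 12, with 8 filled, and Tpm2 is the only gene filled at all 4 days.

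Over the mean of days 5 to 35, 9 of the 10 were called higher in cone cells (background 15.6% called higher), Tpm2 by 2.15 ± 0.21 (adjusted p 7.64e-09), Cnn1 by 1.76 ± 0.31 (0.000207), Acta2 by 1.66 ± 0.23 (2.36e-06) and Lmod1 by 1.47 ± 0.22 (1.24e-05). Myh11 (0.82 ± 0.23), Cnn2 (0.82 ± 0.19), Myl9 (0.67 ± 0.18), Tpm1 (0.67 ± 0.15) and Tagln (0.64 ± 0.22) had smaller means, and Actg2 had 0.36 ± 0.33 (adjusted p 0.464). Leaving out replicate 3 of every group left 5 of the 10 called, with Tagln, Myl9, Cnn2 and Myh11 lost. Myh11 was also lost without replicate 1 (adjusted p 0.0799). Tagln (adjusted p 0.0328) was lost without replicate 2 (0.158), by DESeq2 (0.0638) and with only the compared libraries in the model (0.0659). The F test on whether the cone against rod difference changed with day called Myh11 (adjusted p 0.0173) and Lmod1 (0.0463), where 3.91% of all genes were called. An unadjusted p under 0.05 in this test was found for 7 of the 10, without the share of all genes for comparison. Myh11 went from -0.15 ± 0.60 at day 5 and 2.71 ± 0.42 at day 12 to -0.01 ± 0.39 at day 35, and Lmod1 from 3.02 ± 0.68 and 1.91 ± 0.35 to 0.31 ± 0.34 at day 21 and 0.65 ± 0.33 at day 35. The count of members called by this F test ran from 0 without replicate 3 of every group to 8 without replicate 1.

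The balance between related members differed by condition, which was seen in the levels and then compared as a ratio of counts within each library, a comparison chosen after the values were seen. Tagln counts were 47.5, 46.3 and 44.7% of Acta2 counts in the cone libraries of day 12, 45.0, 47.7 and 44.1% at day 21 and 43.7, 46.2 and 44.1% at day 35, and already 44.4, 47.1 and 41.4% at day 5. In rod libraries they were 81.1, 68.1 and 76.4% at day 12, 90.6, 71.5 and 72.3% at day 21 and 84.5, 67.6 and 72.5% at day 35, and at day 5 152% and 147% in the 2 rod libraries with enough Acta2 counts. So the 9 cone libraries of days 12 to 35 lay between 43.7% and 47.7% and the 9 rod libraries between 67.6% and 90.6%, while the level of Acta2 itself ranged from 127 to 1406 CPM in them.

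Actg2 counts were 0.200% to 0.503% of Acta2 counts in those cone libraries (median 0.249%) and 0.358% to 1.39% in the rod libraries (median 0.798%). Tpm2 counts were 6.28% to 12.1% of Tpm1 counts in cone and 2.11% to 3.81% in rod libraries. At each of the 3 days the cone and rod libraries were apart in these 3 ratios. Labels were exchanged within days in all 8000 ways. The two-sided exact permutation p was 0.00025, the smallest possible, for each of the 3 ratios (adjusted over 5 ratios 0.000417). Because the ratios were chosen after the values were seen, the adjustment over 5 ratios does not cover that choice. Each p-value of a ratio given here therefore describes these libraries and is not independent support for a difference. The mean log2 ratio of cone over rod was -0.74 for Tagln to Acta2, -1.47 for Actg2 to Acta2 and 1.38 for Tpm2 to Tpm1. Within a single day, 3 against 3 libraries cannot go below an exact p of 0.1, the value of each single-day test of these 3 ratios (0.131 adjusted over 17 single-day tests). Cnn1 to Cnn2 (0.46, adjusted exact permutation p 0.0478) lost its call without any 1 of 13 of the 18 libraries, and Myh11 to Acta2 did not pass the test over the 3 days (-0.02, adjusted exact permutation p 0.937). Myh11 counts were 3.48, 2.87 and 2.00% of Acta2 counts in cone and 1.50, 1.24 and 2.17% in rod libraries at day 12. At day 35 they were 1.33, 2.31 and 1.45% in cone and 4.78, 2.49 and 2.79% in rod libraries, with the cone libraries below.

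**Figure D3:**
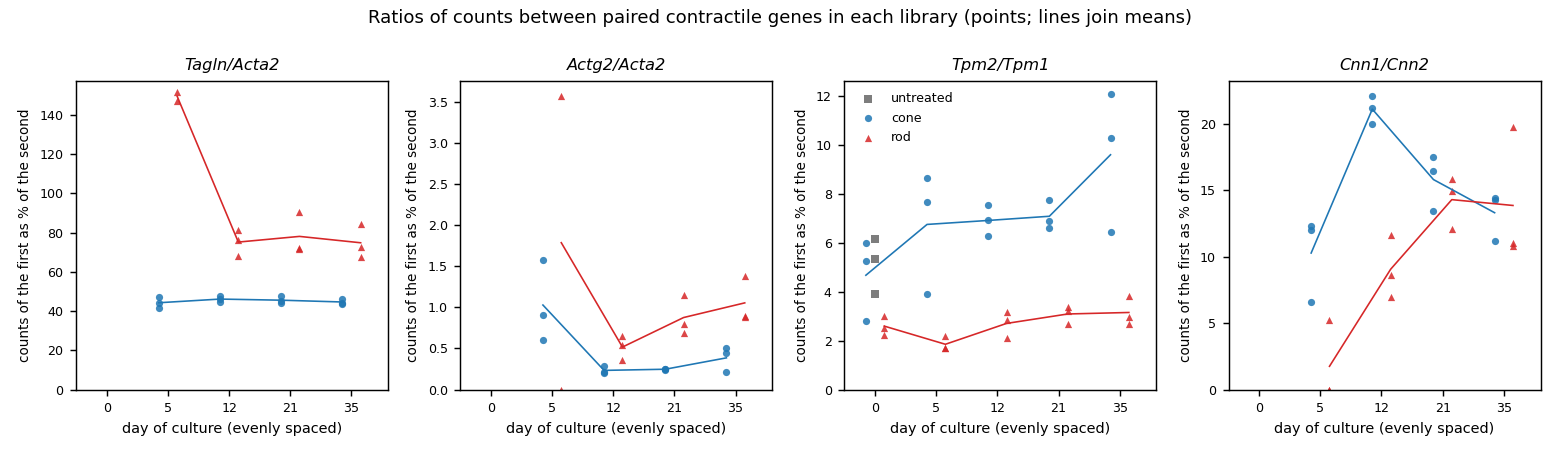
Counts of one gene as a percentage of the counts of a related gene in each library (points; circles cone, triangles rod, squares untreated) by day of culture, evenly spaced, with lines through the means, for libraries with enough counts of the second gene. Tagln to Acta2 lies at 41.4% to 47.7% in every cone library from day 5 on and at 67.6% or more in every rod library, and Tpm2 to Tpm1 is higher in cone libraries at days 5 to 35.

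The 10 genes varied together across libraries. Over the 45 pairs of members Pearson's r of log2 CPM was 0.858 to 0.991 (median 0.945) over all 33 libraries and 0.811 to 0.991 (median 0.947) over the 24 libraries of days 5 to 35, which share the course of culture. Within groups they also shared an order: rod replicate 1 was highest in 10 of 10 genes at day 12, cone replicate 3 in 9 at day 12, cone replicate 1 in 9 at day 21 and rod replicate 3 in 9 at day 35. Among 11908 other genes, the closest to Tagln over the 33 libraries were Ctgf (r = 0.994), Anxa3 (0.993) and Vgll3 (0.988), and the closest to Acta2 were Anxa3 (0.988), Ctgf (0.988) and Vgll3 (0.987). The closest to Tpm1 were Actn1 (0.995), Rock2 (0.987) and Mafk (0.987), the first of which encodes alpha-actinin 1. Ctgf, a matricellular protein gene, and Vgll3, a TEAD cofactor, are in none of the lists used here, and Actn1 and Rock2 are in the list of contractile partners. Few 50-base stretches of the 10 genes were shared with another gene: they made up 0.326% of those of Acta2 and 0.340% of those of Myh11 (26 with Myh9), and 0 in the other 8.

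Genes that work with these 10 were followed as lists. Of 30 contractile partners (myosin kinase and phosphatase subunits, focal adhesion and filament proteins), 15 were higher and 3 lower in cone than in rod cells over the mean of days 5 to 35, with a median of 0.31 beside 0.01 for all genes. Over all genes 15.6% were called higher and 12.2% lower. Nexn, an actin-binding Z-disc and filament protein gene, had 1.73 ± 0.20 (adjusted p 1.75e-07), Ppp1r14a, the myosin phosphatase inhibitor, 1.38 ± 0.23 (4.90e-05), Mylk, the myosin light chain kinase, 1.34 ± 0.16 (4.16e-07), and Synm, an intermediate filament protein gene, 1.25 ± 0.15 (5.68e-07). At day 12, 13 of the 30 were higher and 2 lower (background 5.98% and 4.12%). Against primed cells at day 35, 24 were higher and 3 lower in cone cells (background 31.1% and 26.5%) and 24 higher and 4 lower in rod cells (background 29.4% and 26.2%). The list's summed level was 1558 to 1619 CPM in cone primed, 8044 to 11192 in cone day 12 and 3498 to 7337 in rod day 12 cells.

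The list of regulators gave 16 symbols, with some genes under both an older and a newer name, and matched 14 genes, all tested. Of these 14, 3 were higher and 3 lower in cone cells in the mean over days (median 0.03), beside the called shares of all genes (15.6% and 12.2%). Myocd, the gene for myocardin, had its highest level at day 5, when most of the 10 contractile genes were still far below their level of day 12. It had 0.629, 0.970 and 0.943 CPM in cone primed cells, 19.7, 25.2 and 22.5 at day 5, 4.20, 7.69 and 4.25 at day 12, 0.918, 1.97 and 1.18 at day 21 and 1.11, 1.63 and 0.807 at day 35. In rod cells it had 0.678, 0.403 and 0.269 CPM when primed, 14.6, 21.4 and 17.6 at day 5, 3.78, 2.87 and 3.17 at day 12, 0.540, 0.463 and 0.652 at day 21 and 0.425, 0.0809 and 0.194 at day 35. At day 5 it had risen over primed cells by 4.69 ± 0.34 in cone (adjusted p 7.10e-10 by edgeR) and 5.36 ± 0.38 in rod cells (1.31e-09), and at day 35 neither condition passed the test against primed cells (adjusted p 0.328 and 0.223). Myocd was higher in cone than in rod cells by 1.17 ± 0.18 over the mean of days (adjusted p 1.24e-05), with 0.33 ± 0.26 at day 5 (adjusted p 0.504) and 2.32 ± 0.45 at day 35 (0.000832).

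Klf4, a transcription factor known to repress contractile genes, was higher in cone cells by 1.13 ± 0.20 (adjusted p 8.30e-05), with 16.7, 9.10 and 15.6 CPM in cone and 3.31, 3.48 and 3.03 in rod cells at day 35. By day, Klf4 was called at day 12 (1.21 ± 0.38, adjusted p 0.0383) and day 35 (2.07 ± 0.38, 0.000427), but not at day 5 (1.13 ± 0.45, 0.123) or day 21 (0.10 ± 0.37, 0.913). Foxf1, a factor of visceral mesenchyme, was lower in cone cells (log2 difference -2.50 ± 0.30, adjusted p 7.80e-07), with 1.37, 1.63 and 3.23 and 4.33, 7.36 and 9.49 CPM, and Yap1, a TEAD coactivator, was lower too in the mean, with -0.31 ± 0.08 (0.00484). The Yap1 difference was called at day 5 (medians of 26.9 CPM in cone and 57.8 in rod cells, adjusted p 0.000261) and already in primed cells (log2 difference -0.76 ± 0.17, 0.00499), but not at days 12, 21 and 35 (-0.01 ± 0.16, -0.10 ± 0.16 and -0.13 ± 0.16). Srf, the gene for serum response factor and singled out after its values were seen, had 18.4, 20.0 and 19.0 CPM in cone primed and 43.3, 39.1 and 45.4 in cone day 35 cells, and did not pass the test between conditions over the mean of days (adjusted p 0.365). Its differences were of opposite sign by day, 0.32 ± 0.12, 0.17 ± 0.12, -0.41 ± 0.12 and 0.23 ± 0.12 at days 5, 12, 21 and 35. It was called lower in cone cells at day 21 (adjusted p 0.0327) and called for a change of the difference with day (0.0343).

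The cytoplasmic relatives of the 10 genes had smaller median changes. Of 16 cytoplasmic actin, myosin, tropomyosin, calponin, transgelin and tropomodulin genes, 2 were higher and 2 lower in cone cells in the mean over days (median 0.10), shares near the 15.6% and 12.2% of all genes. These were Cnn3 (0.32 ± 0.10, adjusted p 0.0162) and Actb (0.29 ± 0.09, 0.0172) higher, and Myl12b (-0.33 ± 0.06, 0.000106) and Tmod2 (-0.27 ± 0.09, 0.0195) lower. At day 12, 6 were higher and 1 lower (background 5.98% and 4.12%). Their median change from primed cells to day 35 was 0.93 in cone and 0.64 in rod cells, beside 8.37 and 7.82 for the 10 contractile genes. Of those 10, 6 passed the filter only through later libraries, so these medians are set side by side as a description. Of 27 striated muscle genes 14 were tested, of which 5 were higher and 1 lower in cone cells (background 15.6% and 12.2%, median 0.99), among them Ttn, the gene for titin (1.53 ± 0.16, adjusted p 5.29e-08). Their summed level was 61.9 to 84.7 CPM in cone primed and 20.1 to 29.4 in cone day 35 cells and was 24.6 to 25.1 in rod primed and 11.1 to 12.7 in rod day 35 cells. Myog, the defining factor of skeletal muscle, was at 0 counts in 30 of 33 libraries with a highest count of 5.

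Markers of other cell types that carry these genes were followed as well. Of 9 mural cell and pericyte markers 7 were tested, and 6 were higher than in primed cells at day 35 in each condition (background 31.1% in cone and 29.4% in rod cells). Their summed level was 4.92 to 10.8 CPM in cone primed, 40.1 to 73.4 in cone day 12 and 169, 59.4 and 180.2 in the cone day 35 libraries, and 9.27 to 19.3, 37.7 to 54.9 and 97.7, 109 and 92.4 in the rod libraries. Markers this low in primed cells may have passed the filter only through later libraries, which was not examined, so the counts against primed cells are a description. Higd1b was at 0 counts in all 33 libraries and Kcnj8, an ATP-sensitive potassium channel gene of pericytes, at 0 in 29 with a highest count of 2. Between conditions 2 of the 7 were higher in cone cells in the mean over days (background 15.6%, median 0.13), with Pdgfrb, the PDGF receptor of mural cells and fibroblasts, at 1.88 ± 0.29 (adjusted p 1.32e-05). Rgs5, also in this list, had 0.13 ± 0.32 over the mean of days (adjusted p 0.812 by edgeR). Its differences were 1.24 ± 0.80, 0.30 ± 0.62, -0.21 ± 0.58 and -0.80 ± 0.58 at days 5, 12, 21 and 35, and it was called at none of them.

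Of 11 fibroblast and mesenchyme markers, 11 in cone and 10 in rod cells were higher than in primed cells at day 35 (background 31.1% and 29.4%). The list summed to 9.74 to 19.2 CPM in cone primed cells, with Dcn at 0, and 22.0 to 116 in rod primed cells. Markers low in primed cells may have passed the filter only through later libraries, which was not examined, so these counts are a description. In the mean over days 6 of the 11 were higher and 2 lower in cone cells than in rod cells (background 15.6% and 12.2%, median 1.85). Col1a1, the collagen I alpha 1 gene, had 3.57 ± 0.31 (adjusted p 1.67e-09), Col1a2 2.94 ± 0.42 (4.92e-06), Col3a1 2.60 ± 0.59 (0.00155) and Thy1 2.49 ± 0.28 (9.84e-08). These genes were named by the size of their change, and the 2 markers called lower are not among them. The list summed to 589, 473 and 447 CPM in cone and 180.1, 264 and 293 in rod cells at day 12, 1060.0, 894 and 1023 and 311, 932 and 538 at day 21, and 3775, 830.3 and 4803 and 525, 1059 and 448 at day 35. Cone replicate 2 of day 35 had the lowest mural and fibroblast sums of its group, yet it had 1223 CPM of Acta2, between the other two, the highest Myh11, Lmod1 and Tpm1 of the group and the lowest Actg2 and Tpm2. At day 12 the rod library with the most contractile RNA, replicate 1, had the lowest fibroblast sum of its group. The part of these cell types in the level of the 10 genes was not tested.

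The other marker lists were compared in the same way. In cone against rod cells, over days 5 to 35, 2 of 2 tested endothelial markers of 6 listed were higher, where 15.6% of all genes were called higher and 12.2% lower. Tie1 was at 0 counts in 31 of 33 libraries and Cdh5 at 0 in 18. Kdr, a VEGF receptor gene, made up nearly all of the list's summed level, with a median of 338 CPM in cone primed, 166 in cone day 35 and 60.5 in rod day 35 cells, so the sum is mainly the level of 1 gene. The sum was 329.8 to 366 CPM in cone primed, 129.7 to 235 in cone day 35 and 41.6 to 107 in rod day 35 cells. It was lower at day 35 than at day 0, while the 10 contractile genes were higher. Of 6 ciliary margin markers 0 were higher and 4 lower in cone cells, led by Wfdc1 (-3.24 ± 0.22, adjusted p 1.06e-11). Of 10 retinal progenitor markers 1 was higher and 5 lower. Of 6 Muller glia and astrocyte markers 2 were higher and 0 lower, and of 7 photoreceptor markers 1 was higher and 0 lower, a share near that of all genes. Of 4 tested retinal pigment epithelium and melanocyte markers 3 were higher and 1 lower. Of 3 tested microglia markers 3 were higher, and of 4 tested lens markers 4 were higher. The lens markers were at low levels: the 5 listed summed to 1.80 to 2.74 CPM in cone and 0.0809 to 0.581 in rod cells at day 35. In rod cells of day 21 they summed to 0.232 to 0.695 CPM, also under the filter's level of 0.770 CPM. Lens and microglia markers may thus have passed the filter mainly through cone libraries, where they are high, which was not examined. Their counts are a description, since a higher level in cone cells may be built into their being tested. From primed cells to day 35, the median summed level of Muller glia and astrocyte markers went from 227 to 854 CPM in cone and from 392 to 896 in rod cells. Ciliary margin markers went from 187 to 617 CPM in cone and from 465 to 1386 in rod cells. Pigment epithelium and melanocyte markers went from 33.3 to 165 and from 49.4 to 151 CPM. Microglia markers went from 1.38 to 23.7 CPM in cone cells and from 1.36 to 1.21 in rod cells.

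**Figure D4:**
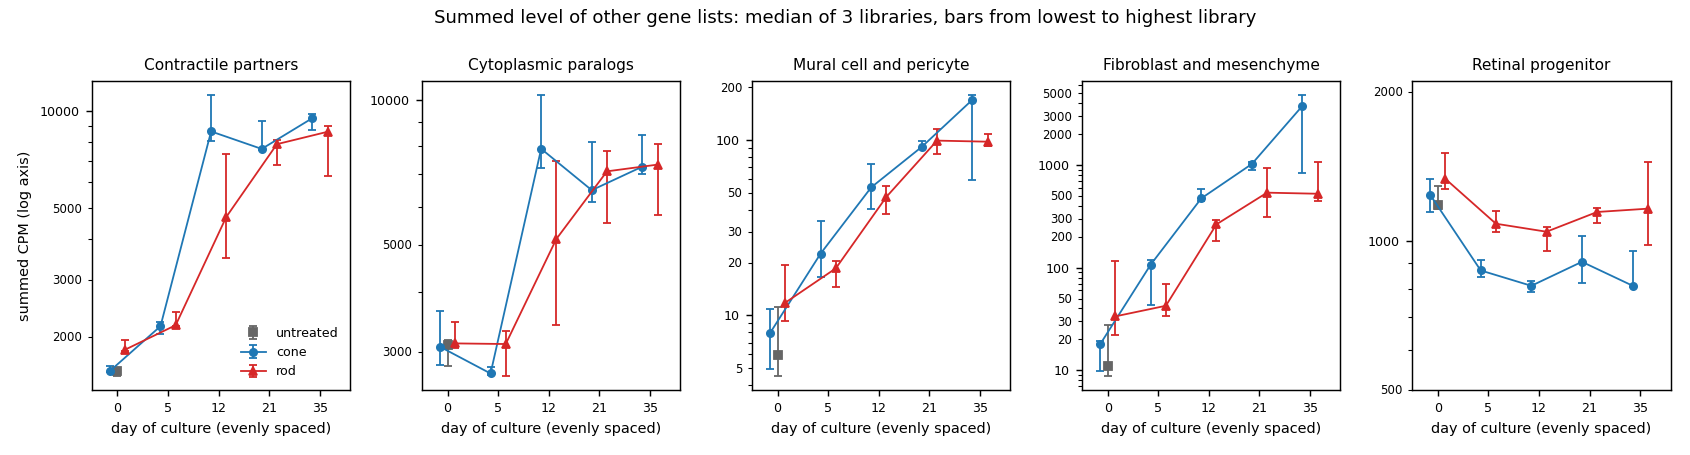
Summed CPM of 5 gene lists on a log axis by day of culture, evenly spaced, as the median of 3 libraries with bars from the lowest to the highest library (squares untreated, circles cone, triangles rod). Contractile partners, cytoplasmic paralogs, mural and fibroblast markers are higher at day 35 than at day 0 in both conditions, the fibroblast sum of cone cells at day 35 spans 830.3 to 4803 CPM, and retinal progenitor sums of cone cells lie below those of rod cells at day 12.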

How the data were processed

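Libraries were made with Takara low-input kits, per the labels' protocols. The submitters' processing notes list HISAT2, HTSeq, StringTie and GRCm38. The authors deposited whole-number counts per gene, the basis of all results, and StringTie tables of coverage, FPKM and TPM, of which symbols and TPM were used; how strand was set is not given in the sources used here. Growth conditions beyond the labels were not used here.

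Counts were fitted for all 33 libraries in 1 edgeR 4.0.16 quasi-likelihood model (R 4.3.3; TMM scaling; low-count filter with a minimum count of 10; a mean per group), and p-values were adjusted over 18150 genes by Benjamini-Hochberg within each comparison; called means an adjusted p under 0.05. CPM uses TMM library sizes. Standard errors are on the log2 scale. The biological coefficient of variation was 0.213. DESeq2 1.42.0 and limma 3.58.1 (voom, and limma-trend on log2(TPM + 1), which understates changes of low genes) were alternatives. Scripts were tested on simulated data. All 10 members were named. From each other list up to 4 called genes with the largest change were named. Xist, Tsix, Srf, Rgs5 and the markers at 0 counts were named after their values were seen. Members and lists were chosen with earlier results of these data known. Promoters are RefSeq's, on GRCm38.p6.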

Additional observations from a re-analysis of the deposited data

Results flagged for a closer look

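The difference between cone and rod cells changed over days 5 to 35 for Myh11 (adjusted p 0.0173, edgeR F test across all genes) and Lmod1 (0.0463), so that both differed in their course between conditions. For Myh11 the log2 fold changes of cone over rod were -0.15 ± 0.60, 2.71 ± 0.42, 0.73 ± 0.39 and -0.01 ± 0.39 at days 5, 12, 21 and 35. For Lmod1 they were 3.02 ± 0.68, 1.91 ± 0.35, 0.31 ± 0.34 and 0.65 ± 0.33. The Myh11 call was lost without replicate 3 of every group (adjusted p 0.607). The Lmod1 call was lost without replicate 1 (0.0845), replicate 2 (0.0604) or replicate 3 (0.614), and with voom quality weights (0.170).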

How the results depend on the processing

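Each model was refitted with other size factors (RLE), without the low-count filter, with DESeq2, with voom quality weights, with only the compared libraries, with the replicate number as a block, on log2(TPM + 1), and leaving out libraries. The 7511837 to 19166442 counts per library limit Actg2, Cnn1 at day 5 and all genes but Tpm1 and Tpm2 at day 0. Replicate numbers did not pair the samples: same-numbered libraries correlated in their deviations at -0.226 to 0.513, every pair exceeded 0.1 in 0 of 15 comparisons, and 12 of 45 correlated best with their own number. With the replicate block 5 genes were called at day 5, 9 at day 12 and 3 for the change with day. Over all genes the block called 1736, 1903 and 822 there. Of up to 130 gene-level results, the call and direction were the same for all 130 with RLE factors, 119 with DESeq2 (1 weaker), 127 with the block (3 stronger), 126 without the filter (4 stronger), 116 with voom weights (9 stronger, 3 weaker, 2 reversed) and 110 with only the compared libraries (1 stronger, 7 weaker). On TPM values 54 were the same, 42 weaker and 17 reversed. DESeq2 gave no test of the change with day.

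With only the compared libraries 2 genes were called between conditions at day 12, 2 at day 35 and 1 in rod primed against untreated cells. Over all genes 363, 1456 and 2912 were then called, beside 1833, 2229 and 1864 in the main edgeR model. With voom weights 3 were called at day 21, 2 at day 35 and 5 for the change with day, as many as the 5 without the filter. Voom weights called 3699, 2827 and 3204 of all genes there, beside 1633, 2229 and 710 in the main edgeR model. The fit without the filter called 855 for the change with day. A changed member count can reflect a changed rate over all genes, and this was not tested. On TPM values 0, 1, 0 and 0 genes were called between conditions at days 5, 12, 21 and 35, 2 over the mean of days and 0 for the change with day. Against primed cells 1, 4, 4 and 7 were then called in cone cells at days 5, 12, 21 and 35, and 1, 4, 4 and 4 in rod cells. Over all genes, TPM values called 192, 131, 41 and 34 between conditions by day, 281 over the mean and 44 for the change with day. Against primed cells they called 1275, 938, 871 and 963 of all genes in cone and 831, 781, 842 and 710 in rod cells. TPM values may hold reads of the opposite strand, so a reversal may not concern the gene named. Between conditions these log2 fold changes were -0.32 (Tagln) and -0.15 (Tpm1) at day 5, -0.26 (Myh11) at day 12, -0.000506 (Myl9) and -0.66 (Cnn1) at day 21, -0.11 (Tagln) and -0.045 (Lmod1) at day 35, and -0.092 (Actg2), -0.092 (Tagln) and -0.067 (Myh11) over the mean. Against primed cells they were, for Lmod1, -0.50 and -1.29 in cone cells at days 21 and 35 (the latter with an adjusted p of 0.0289) and -0.00797, -0.43 and -1.02 in rod cells at days 12, 21 and 35, and for Myh11 -0.014 and -0.081 in rod cells at days 21 and 35. Voom weights reversed Tpm1 at day 21 (-0.067) and Tagln at day 35 (-0.029). The cause of these changes was not tested.

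Leaving out libraries gave 3 to 5 called genes at day 5, 6 to 9 at day 12, 0 to 1 at day 21, 1 at day 35, 5 to 8 over the mean of days (5 without replicate 3, 8 without replicate 1) and 0 to 8 for the change with day (0 without replicate 3, 8 without replicate 1). The number of all genes called in these refits is not given here, so a change particular to the members was not tested. Differences that changed sign and passed no test ranged over -0.75 to 0.23 for Myh11 at day 5, -0.36 to 0.086 for Tagln, -0.0064 to 0.47 for Myl9 and -0.037 to 0.31 for Tpm1 at day 21, -0.10 to 0.48 for Tagln and -0.35 to 0.22 for Myh11 at day 35, and -0.11 to 0.13 for the log2 ratio of Myh11 to Acta2.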

Other observations

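Lmod1 is an example of the deposited counts and TPM values going opposite ways. The TPM values may hold reads of the opposite strand, a doubt raised by Xist and Tsix, so its TPM may not measure Lmod1. It had 0 to 3 counts per library at day 0, when its TPM was 7.04 to 9.32 in untreated, 4.53 to 7.29 in cone primed and 3.76 to 5.89 in rod primed cells. At day 35 its counts had risen to 42.3 to 74.2 CPM in cone and 32.0 to 50.3 CPM in rod cells, while its TPM was 1.43 to 2.15 and 1.64 to 2.08. Gm22796 overlaps Lmod1 on the other strand.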
